A study of Caenorhabditis elegans with 2 samples.

Results

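The nhr genes of Caenorhabditis elegans encode nuclear hormone receptors. Members were all protein-coding genes of the Ensembl annotation of WBcel235 whose name is nhr- followed by a number, except nhr-49 and nhr-80, which were left out by that rule. This gave 267 genes among 19973 nuclear protein-coding genes. Each was examined for a binding summit in its promoter, taken to begin 1000 bp before any annotated 5' end and to stop 200 bp past it.

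Binding was measured by TF ChIP-seq, in which DNA bound by a chosen protein is pulled down with an antibody and sequenced. There was 1 group of 2 libraries, biological replicates 1 and 2, from whole L2 larvae, a mixed-sex population of the OP178 strain (unc-119(ed3) III; wgIs178). The wgIs178 insertion targets skn-1, and the line stably expresses SKN-1 carrying GFP-FLAG at the C terminus; the promoter that drives the fusion is not stated in the labels. The antibody label reads skn-1, whereas the free-text description names PHA-4, so the labels disagree on the protein. There was no second condition and the control experiment was not analysed here. In whole larvae, strong binding in few cells and weak binding in many cannot be told apart.

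Nuclear receptors are transcription factors with a zinc-finger DNA-binding domain and, in most, a ligand-binding domain that can sense lipids and other small molecules. The family is greatly expanded in Caenorhabditis, mainly by duplication of an HNF4-like ancestor, and a small set of members has clear counterparts in insects and vertebrates. Several members regulate fat metabolism, xenobiotic responses and moulting. SKN-1, related to the Nrf factors of vertebrates, is known for the oxidative stress response, and PHA-4 is the forkhead factor of the pharynx.

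In the optimal list, the peaks that passed the deposited reproducibility procedure, 9 of the 267 members had a promoter summit (3.37%), against 777 of all protein-coding genes (3.89%). The family's share was thus close to the background, and with promoters of 500 bp before and 100 bp past a 5' end it stood above it, at 3.37% against 3.16%. The 9 members, in order of signal, were nhr-182, nhr-104, nhr-228, nhr-57, nhr-203, nhr-119, nhr-154, nhr-177 and nhr-12. The other 258 members had none. Of the 9, 7 lay on chromosome V, nhr-104 on chromosome IV and nhr-119 on chromosome II. No test of the family against other genes was made.

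A sequence feature was common to most of these 9 sites. The SKN-1 word is TATCAT or TGTCAT preceded by A or T at both of the positions before it. It stood within 100 bp of the summit at 7 of the 9 members (77.8%), against 240 of all 870 nuclear optimal summits (27.6%) and 152 of the 588 optimal summits in promoters (25.9%). The stretches around the word are shown because they carry this feature. Each is 30 bases, on the strand of the gene in WBcel235, with the word in capitals.
nhr-182, chrV:2259856-2259885, minus strand: gttctatgcctTTTGTCATcatttatgatg
nhr-104, chrIV:4788485-4788514, minus strand: aaaacattggaAATATCATcatttggtcga
nhr-228, chrV:2281699-2281728, plus strand: ctgtttgtttcTTTGTCATtcttttctgtc
nhr-57, chrV:4131722-4131751, plus strand: tatccgaacaaATTGTCATcgttttcggaa
nhr-119, chrII:2800915-2800944, minus strand: tctgcgtctctTTTGTCATctatatctcgt
nhr-177, chrV:1610195-1610224, plus strand: accttacattgTATGTCATtccgccacagc
nhr-12, chrV:10084325-10084354, minus strand: caggtagttgaAATGTCATcatcaccgtta

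At nhr-182, nhr-228 and nhr-119 the 8 letters were the same, TTTGTCAT. In all 7 the word read on the strand of the nhr gene. The strand was not among the planned comparisons, so this is no independent result. Of 109 optimal summits that lie in the promoter of 1 gene and hold the word, 59 had it on the gene's strand alone, 39 on the other strand alone and 11 on both. The summit of nhr-12 also lies in the promoter of R04B5.6, so it is not among these 109. The summits of the other members with the word are among them. The centre of the word was 1 to 82 bp from the summit, with a median of 43 bp, and lay downstream of the summit along the gene in 5 of 7. Within 50 bp of the summit the word was found at 4 of the 9 members, against 165 of 870 optimal summits (19%).

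The sites without the word were those of nhr-203 and nhr-154. The window of nhr-203 held the core of the word, ATCAT or GTCAT, as did those of 8 of the 9 members, against 608 of 870 optimal summits (69.9%). The core is part of the SKN-1 word, so these counts overlap. In the window of nhr-154 neither form was present, which says only that these letters are not within 100 bp of its summit.

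Other words were found at fewer of the 9. The GATA word TGATAA was present at nhr-104 and nhr-119, 2 of the 9 members (22.2%), against 341 of 870 summits (39.2%). Its reverse complement can overlap the TATCAT form of the SKN-1 word. The forkhead word, TGTTTAC or TGTTTGC, which PHA-4 and related factors bind, was present at 1 of the 9, nhr-203, against 119 of 870 (13.7%). The word CTGCGTC, picked in an earlier search of these same summits, was present at nhr-182, nhr-228, nhr-119 and nhr-12, against 107 of 870 (12.3%). All words were searched on both strands.

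The site of nhr-119 shows the words together. The sequence is 201 bases centred on its summit, chrII:2800866-2801066 on the minus strand in WBcel235, with the SKN-1 word in capitals; no annotated exon overlaps it.
nhr-119: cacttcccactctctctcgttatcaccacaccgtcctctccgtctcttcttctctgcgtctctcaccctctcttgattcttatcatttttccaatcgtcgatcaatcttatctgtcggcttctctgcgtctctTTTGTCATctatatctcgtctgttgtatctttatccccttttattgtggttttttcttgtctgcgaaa

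CTGCGTC occurs in it at 2 places, centred 44 bp upstream and 26 bp downstream of the summit along the gene, and the SKN-1 word is centred 37 bp downstream.

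The corresponding 201 bases at nhr-57, chrV:4131581-4131781 on the plus strand, hold the SKN-1 word 55 bp downstream of the summit and no CTGCGTC. This site is shown because nhr-57 is the 1 receptor of the 9 on the metabolism and stress list used further on; its transcript is known to be induced by low oxygen through the factor HIF-1.
nhr-57: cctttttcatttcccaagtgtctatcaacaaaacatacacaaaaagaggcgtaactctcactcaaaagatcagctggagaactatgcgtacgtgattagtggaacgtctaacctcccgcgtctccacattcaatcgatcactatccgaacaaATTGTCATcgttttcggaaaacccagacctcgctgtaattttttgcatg

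**Figure D1:**
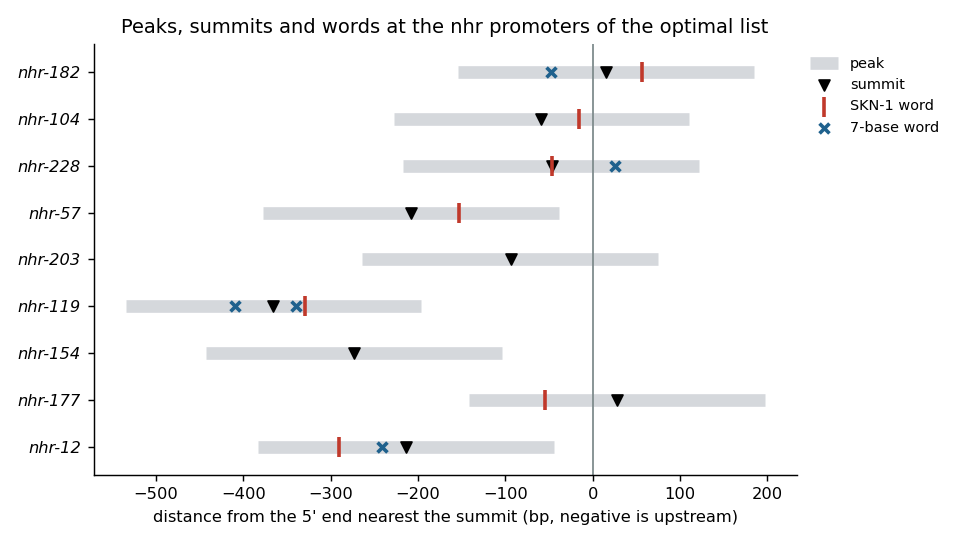
Peaks of the optimal list at the 9 nhr members, drawn against distance in bp from the annotated 5' end nearest the summit (negative is upstream, along the gene). Grey bars are the deposited peaks of 340 bp, triangles their summits, red ticks the SKN-1 word and blue crosses the 7-base word picked in an earlier search; the red tick is absent at nhr-203 and nhr-154, and all summits lie within 366 bp of a 5' end.

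Each peak carries a deposited signal, the authors' value on the scale of its own list, with no replicate error, and ranks below are by that signal among the nuclear peaks of a list. The strongest peak at a member was at nhr-182 (chromosome V 2259742 to 2260081), with a signal of 88.0 and rank 121 of 870. In the replicates' own lists the overlapping peak ranked 142 in replicate 1 and 92 in replicate 2. The libraries thus placed nhr-182 at similar heights. The peak at nhr-104 (chromosome IV 4788372 to 4788711) had a signal of 74.1 and rank 185, with ranks of 124 in replicate 1 and 490 in replicate 2. At nhr-228 (chromosome V 2281542 to 2281881) the signal was 73.5 and the rank 192, with ranks of 209 and 438 in replicates 1 and 2. For nhr-57 (chromosome V 4131511 to 4131850) the signal was 67.9 and the rank 233, with ranks of 237 and 448. All 3 stood higher in replicate 1.

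The remaining peaks were weaker. At nhr-203 (chromosome V 459531 to 459870) the signal was 55.6 and the rank 406, with ranks of 568 in replicate 1 and 512 in replicate 2. At nhr-119 (chromosome II 2800796 to 2801135) they were 52.8 and 469, with ranks of 629 and 432. Both of these were placed slightly higher by replicate 2. Calls at the last 3 members leaned on 1 library. For nhr-154 (chromosome V 12100850 to 12101189, signal 52.6, rank 476) replicate 2 had an overlapping peak at rank 718 and replicate 1 had none. For nhr-177 (chromosome V 1610121 to 1610460, signal 49.4, rank 592) the overlapping peak ranked 307 in replicate 1 and 5432 in replicate 2, where its q value was 0.176. For nhr-12 (chromosome V 10084093 to 10084432, signal 43.6, rank 852) it ranked 439 in replicate 1 and replicate 2 had none. Of all 870 nuclear optimal peaks, 858 were overlapped by a peak of both replicates' lists, whereas 7 of the 9 at nhr members were.

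The median signal of the 9 peaks was 55.6, against 54.1 for all nuclear optimal peaks, and 5 of the 9 were in the stronger 435. The reproducibility procedure set the lower end of the list: nhr-12 was the member just inside it, and the strongest peak of the pooled list at a member outside it was at nhr-256 (signal 40.8, rank 1013).

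**Figure D2:**
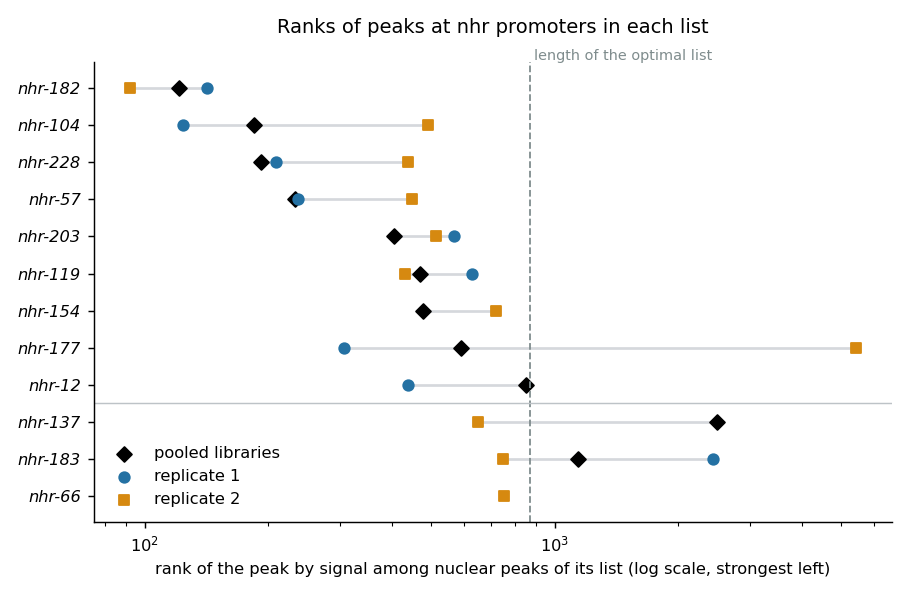
Rank of the peak at each promoter (log axis, strongest at the left) in the pooled libraries (black diamonds), replicate 1 (blue circles) and replicate 2 (orange squares). The upper 9 genes are those of the optimal list, whose length of 870 nuclear peaks is the dashed line, and the lower 3 had a summit among the 870 strongest peaks of replicate 2 alone; a missing marker means that no peak of that list overlapped, as for nhr-154 in replicate 1 and nhr-12 in replicate 2.

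Summits stood close to the starts of these genes. At 8 of the 9 the summit was within 300 bp of an annotated 5' end, and the farthest was that of nhr-119, 366 bp upstream. This closeness was not particular to the family in the pooled list. Among genes with a pooled promoter summit, the median distance to a 5' end was 237.5 bp for members and 250 bp for all genes. Distances and positions in the gene are not given here for all optimal promoter summits. At 6 it lay upstream of the whole gene, and at nhr-182, nhr-104 and nhr-177 it fell in the noncoding part of an exon. No member had its summit in a coding exon or an intron. At 8 of the 9 the summit was in no other gene's promoter, while that of nhr-12 was shared with the gene R04B5.6, so that the gene concerned cannot be told there. Of all 588 optimal summits in a promoter, 396 (67.3%) were in the promoter of 1 gene.

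By themselves the libraries gave similar numbers and partly different members. Among the 870 strongest nuclear peaks of replicate 1, 8 members had a promoter summit (3%), against 3.79% of all genes, and among those of replicate 2, 10 had one (3.75%), against 3.71%. Both libraries shared 6: nhr-182, nhr-104, nhr-228, nhr-57, nhr-203 and nhr-119, which is 2.25% of members, against 2.07% of all genes. Replicate 1 alone added nhr-177 and nhr-12, and replicate 2 alone added nhr-154, nhr-137, nhr-183 and nhr-66. The last 3 had no optimal promoter summit. At nhr-137 (rank 648 in replicate 2) no peak of replicate 1 overlapped and the pooled peak ranked 2484. At nhr-183 the ranks were 748 in replicate 2, 2433 in replicate 1 and 1141 in the pooled list. At nhr-66, which encodes a partner of NHR-49 in lipid metabolism, the peak ranked 750 in replicate 2 and overlapped no peak of replicate 1 or the pooled list; other, weaker summits of its promoter are given further on.

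The bound members nhr-182 and nhr-228 lie 21.8 kb apart in a run of nhr genes on chromosome V; the run was singled out after its values were seen. The stretch of it from nhr-134 to nhr-226, described here, holds 11 members. Other nhr genes continue the run before nhr-134 and are not in this count. Among those, nhr-184 had a pooled summit of signal 32.7 at rank 1809 and nhr-56 one of 29.1 at rank 2477. At nhr-13 it was 24.6 at rank 3670, while nhr-133, nhr-128, nhr-103, nhr-18 and nhr-126 had no pooled promoter summit. Within the stretch, after nhr-182 and nhr-228, the strongest pooled summits were at nhr-183 (signal 39.2, rank 1141), nhr-226 (29.4, rank 2402) and nhr-134 (28.1, rank 2682). At nhr-115 there was one of 19.0 at rank 7106. The other 5 genes of the stretch, nhr-96, nhr-275, nhr-59, nhr-227 and nhr-225, had no pooled promoter summit. Neighbours thus differed: nhr-227 starts 469 bp from the end of nhr-228, and nhr-183 lies 2562 bp from nhr-182. Of all members, 140 have another member within 5000 bp, of which 6 had an optimal summit and 51 (36.4%) a pooled one. Of the other 127, 3 had an optimal summit and 49 (38.6%) a pooled one. The shares of all genes were 3.89% in the optimal list and 29.2% in the pooled list. Chromosome V holds 112 of the 140 and 55 of the 127, and the part of this difference in the counts was not tested.

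The chromosomes matter for the background, because the family is unevenly spread. Chromosome V holds 167 of the 267 members (62.5%) and 25% of all genes. There 7 members (4.19%) had an optimal summit, against 139 of all 4994 genes (2.78%). Along chromosome V, cut into 4 equal stretches, an optimal summit was found in the first for 5 of 74 members, against 1.9% of all genes there, and in the next for 1 of 33 members, against 3.43%. The third stretch had 1 of 23 members, against 4.63%, and the last 0 of 37, against 0.861%. Chromosome IV had 1 of 33 members, against 3.96% of all genes there, and chromosome II 1 of 15, against 3.57%. None of the 22 members on chromosome I, 7 on III or 23 on X had one, against 4.73%, 6.06% and 3.26% of all genes there. With so few members on these chromosomes, this cannot be read as a difference from all genes.

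**Figure D3:**
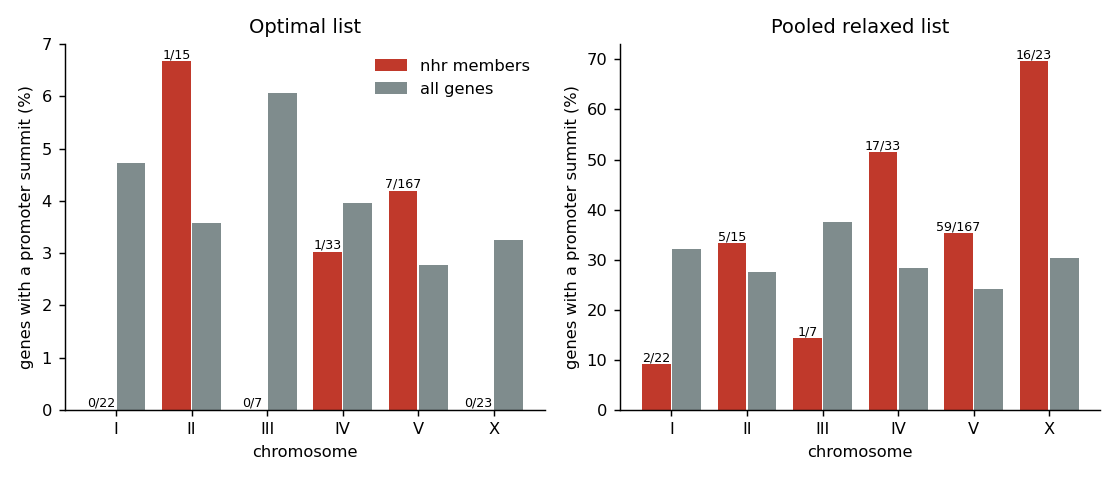
Percent of nhr members (red) and of all protein-coding genes (grey) with a promoter summit, by chromosome, in the optimal list (left) and the pooled relaxed list (right). Numbers above red bars are members with a summit of all members on that chromosome; on X these are 0 of 23 in the optimal list and 16 of 23 in the pooled list, and bars carry no error because each list is 1 set of peaks.

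The relaxed lists were deposited as peaks and background for the reproducibility procedure, so most of their peaks are weak. In the pooled relaxed list 100 of the 267 members had a promoter summit (37.5%), against 29.2% of all genes. In replicate 1's list 125 had one (46.8%), against 41%, and in replicate 2's list 135 (50.6%), against 43.5%. A promoter summit in each of the 3 relaxed lists, not necessarily at the same site, was found for 71 members (26.6%), against 22.4%. With a q value of at most 0.05 in the pooled list, an alternative chosen after seeing the data, 24 members were left (8.99%), against 7.7%. At least 1 relaxed list had a summit at 178 members (66.7%), against 57.5% of all genes, and 89 members had none in any of them.

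The order of the shares changed several times down the pooled list. At rank 100 they were 0% of members and 0.431% of all genes, at rank 250 they were 1.5% and 1.17%, and at rank 500 2.62% and 2.32%. At rank 870 the shares were 3.37% of members and 3.89% of all genes, at rank 1500 they were 5.24% and 6.27%, at rank 2000 8.99% and 7.96%, and at rank 4000 17.2% and 13.6%. Members were thus below all genes at rank 100 and from 870 to 1500, and above at 250, 500 and each rank examined from 2000 on. Among genes with a pooled summit, the median rank of the strongest was 4426 for members and 4467 for all genes. The median length of promoter searched was 1201 bp for members and for all genes, and the mean was 1500 bp for members and 1460 bp for all genes; its part in the difference was not tested. By chromosome the pooled shares ran from 69.6% of members on X, against 30.3% of all genes there, to 9.09% on chromosome I, against 32.2%. Chromosome IV stood at 51.5% of members, against 28.3%, and V at 35.3%, against 24.1%.

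**Figure D4:**
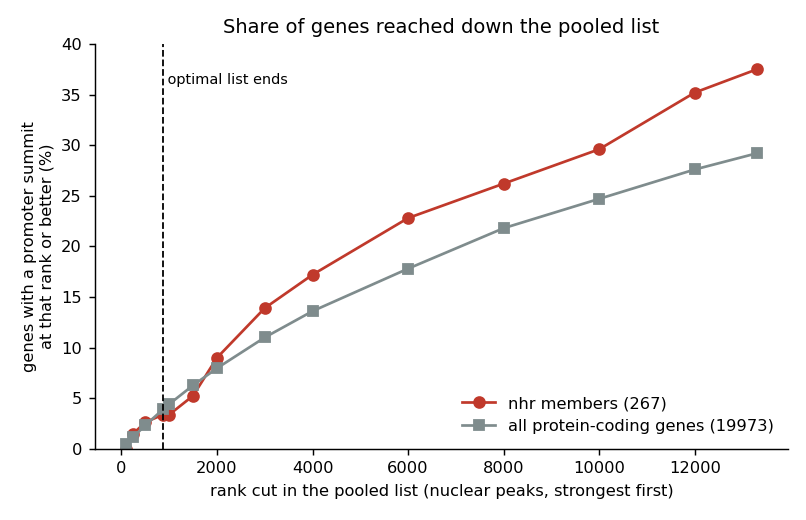
Percent of nhr members (red circles) and of all protein-coding genes (grey squares) with a promoter summit at or above each rank of the pooled list. The dashed line marks rank 870, where the optimal list ends; members are at 3.37% and all genes at 3.89% there, and at 37.5% and 29.2% at the end of the list.

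The members with the strongest pooled summits outside the optimal list were nhr-256, nhr-41, nhr-183, nhr-50, nhr-3, nhr-35, nhr-42, nhr-132, nhr-135 and nhr-291. Their signals ran from 40.8 at nhr-256 to 33.6 at nhr-291, with q values from 0.00639 at nhr-41 to 0.0299 at nhr-291. At nhr-256 the overlapping peaks ranked 1542 in replicate 1 and 1093 in replicate 2. At nhr-50, signal 36.8, they ranked 1178 and 1700, and at nhr-35, signal 34.2, 1305 and 4678. All 10 were thus overlapped by a peak of each library, and of these peaks only that of nhr-183 in replicate 2 was among the 870 strongest. At the weaker sites the SKN-1 word was within 100 bp of 14 of 108 pooled summits in members' promoters outside the optimal list (13%), against 651 of 5171 such summits at all genes (12.6%). CTGCGTC, a word chosen after seeing these data and so no independent result, was present at 20 of the 108 (18.5%), against 348 of 5171 (6.73%).

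Among the members, receptors with counterparts outside nematodes were taken as a list of 11, chosen with earlier results of these data known. These were nhr-6, nhr-8, nhr-23, nhr-25, nhr-41, nhr-48, nhr-67, nhr-85, nhr-91, nhr-111 and nhr-239. Receptor genes with other names are not in it and are given further on, so its shares are not those of all conserved receptors. No gene of the list had an optimal promoter summit, against 3.89% of all genes, and 5 had a pooled one (45.5%), against 29.2%. With 11 genes neither count can be read as a difference from other genes. Their searched promoters were longer, with a mean of 2300 bp, against 1460 bp for all genes, and the part of this in the pooled count was not tested. The strongest was at nhr-41, of the TR2 and TR4 subfamily (signal 40.7, rank 1016), with ranks of 1409 in replicate 1 and 2267 in replicate 2. That summit lay inside the gene, 779 bp upstream of an internal 5' end, 1 of 5 annotated for nhr-41. At nhr-8, which acts in xenobiotic resistance and cholesterol metabolism, the pooled summit ranked 4285 with a q value of 0.360. The remaining pooled summits were weak: nhr-48 at rank 6539, nhr-6, the NR4A receptor of spermatheca development, at 9313, and nhr-67, the tailless counterpart, at 10533. The moulting receptor nhr-23 had summits in the replicates' lists only, at ranks 16716 and 10386 in replicates 1 and 2. Neither nhr-25, the FTZ-F1 counterpart that also acts in moulting, nor nhr-85, nhr-111 or nhr-239 had a promoter summit in any list. At nhr-91, the GCNF counterpart, replicate 2 alone had one, at rank 22365.

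Receptors studied in metabolism and stress were taken as a list of 14. It was chosen with earlier results of these data known, so its shares below describe the list and are no independent result. Of these, 1 had an optimal summit, nhr-57, and 13 had a pooled one (92.9%), against 33.9% of the 242 members in neither list and 29.2% of all genes. The searched promoters of the 14 were longer too, with a mean of 1930 bp, against 1440 bp for the members in neither list and 1460 bp for all genes; the part of length in the pooled count was not tested. With a pooled q value of at most 0.05, 1 of the 14 was left, nhr-57 (7.14%), against 7.7% of all genes. The strongest after it were nhr-64 (signal 30.1, q value 0.0805), nhr-45 (29.1, 0.0965), nhr-68 (26.5, 0.186), nhr-76 (26.1, 0.206) and nhr-13 (24.6, 0.276). The median signal of the whole pooled list was 19.5. Of the 14 genes, 11 had a promoter summit in each of the 3 relaxed lists, against 26.6% of all members and 22.4% of all genes. These summits need not be at the same site. NHR-68 acts with NHR-10 in the alternative breakdown of propionate, and NHR-76 acts in fat regulation by serotonin. The libraries ranked several differently: nhr-45 stood at 8437 in replicate 1 and 1292 in replicate 2, and nhr-76 at 3019 and 16999. The ranks in the pooled list were 4131 at nhr-31, which regulates vacuolar ATPase genes of the excretory cell, 4804 at nhr-14, 7119 at nhr-114, 7201 at nhr-86, 8707 at nhr-28, 10840 at nhr-66 and 12842 at nhr-62, a receptor of the longevity response to dietary restriction. The gene with no summit in any list was nhr-10.

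Nuclear receptor genes with other names gave a short comparison. Of daf-12, fax-1, odr-7, sex-1 and unc-55, none had an optimal or pooled promoter summit, against 3.89% and 29.2% of all genes. With 5 genes this cannot be read as a difference from other genes. In the replicates' lists daf-12, the receptor of the dauer decision, had summits at ranks 11141 and 22578 in replicates 1 and 2, odr-7 had one in replicate 1 and fax-1 one in replicate 2, at ranks 11512 and 11564. No promoter summit was found for sex-1 or unc-55.

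Some optimal summits lay near a member but outside its promoter. The strongest was 1190 bp upstream of nhr-84 (chromosome V 15880628 to 15880967), with a signal of 173 and rank 18, and it ranked 21 in replicate 1 and 29 in replicate 2. The next was 1946 bp upstream of nhr-70 (chromosome V 18614471 to 18614810), with a signal of 165 and rank 21, and it ranked 13 and 120 in replicates 1 and 2. Both were stronger than any peak inside a member's promoter, each held 1 SKN-1 word within 100 bp, and neither was in the promoter of another protein-coding gene. The summit nearest the promoter limit was 1102 bp upstream of nhr-8 (signal 57.7, rank 372), where it lay in the promoters of emc-6, mrpl-1 and mrps-24. Inside genes, introns of nhr-19 held 2 summits (signals 52.4 and 48.3), which ranked 215 and 476 in replicate 1 against 3049 and 3125 in replicate 2. An intron of nhr-137 held 1 (signal 43.4, rank 862), which ranked 1141 in replicate 1 and 694 in replicate 2.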

How the data were processed

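The 4 ce11 peak lists (optimal, pooled, replicates 1 and 2) were used. According to the readmes the authors deposited, the relaxed lists derive from the alignments and a further file shared by both replicates, and the optimal list from the relaxed ones. Each deposited peak has a signal value and a −log10 q value. For the aligner, peak caller and cutoff, names and versions were not given in the sources used here; read depth is unknown. The lists held 872, 13302, 24771 and 28630 peaks, of which 870, 13300, 24771 and 28606 were nuclear. All 870 nuclear optimal peaks were identical to the pooled peaks of the same rank. The ce10 lists were not used here. Coordinates are 1-based.

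Summits were assigned to every gene whose promoter they fell in, and words were read from the RefSeq WBcel235 genome, with Python 3.11. Both steps were checked on simulated data. No set test was made: shares over all genes stand beside the members' counts. Replicates come from the sample descriptions; nothing says how far they were prepared apart. The members, lists and words were chosen with earlier results of these data known. Genes named are those with an optimal promoter summit, or one among a replicate's 870 strongest; the 10 next in the pooled list; the listed receptors; genes sharing a promoter; and members with an optimal summit inside the gene or up to 2000 bp upstream. The run around nhr-182 and its neighbours in the pooled list fall outside this rule.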

Additional observations from a re-analysis of the deposited data

How the results depend on the processing

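The share of members with an optimal promoter summit was below or above that of all genes depending on the setting. The count was 9 (3.37%, against 3.89%) in the main analysis and with 5' ends of protein-coding transcripts only, and 9, against 3.81% of all genes, without peaks under full width, an alternative chosen after seeing the data. With promoters cut to 500 bp before and 100 bp past a 5' end it was again 9, but against 3.16%, and with the gene of the nearest 5' end only 9 against 2.91%, so members then stood above all genes. It was 10 (3.75%, against 4.22%) with any base of the peak in the window, which added nhr-8, and 12 (4.49%, against 5.12%) with 2000 bp upstream, which added nhr-8, nhr-70 and nhr-84. Leaving out a replicate, so that the other's strongest 870 peaks stand in, gave 8 to 10 members. The 435 strongest optimal peaks left 5 (1.87%, against 2.06%), without nhr-119, nhr-12, nhr-154 and nhr-177. In the pooled list, a q value of at most 0.05, chosen after seeing the data, left 24 of 100 members (8.99% of members, against 7.7% of all genes). The shorter promoters gave 78 members (29.2%, against 21.8% of all genes) and the longer ones 121 (45.3%, against 38%). The SKN-1 word was at 4 of the 9 members within 50 bp of the summit, against 19% of all nuclear optimal summits, and at 7 within 150 bp, against 33%. CTGCGTC, chosen after seeing the data, was at 4. No paired analysis was possible because there is 1 group. Read depth is unknown, so how far it limits the weaker peaks cannot be given.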
